A study of Mus musculus with 2 samples.

Results

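Ptprz1, Cspg4, Pdgfra and Tmem100 are 4 genes known for their expression in oligodendrocyte precursor cells, and they were followed here through a list of C-to-U editing sites from sorted nuclei of mouse cortex. Every site that the list assigns to these gene names was taken, with no filter on its level. That gave 28 sites in the 4 genes, of 17755 sites in 6929 genes in all.

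The nuclei came from mice that carry APOBEC1-YTH, in which the RNA-editing deaminase APOBEC1 is joined to a YTH domain that recognises N6-methyladenosine (m6A) in RNA. The fusion converts cytidines near m6A to uridines, and the share of reads that carry such a conversion at a cytidine is the editing level of that site. The series has a single group of 2 libraries. In both, APOBEC1-YTH mice aged 10 weeks at the first injection received tamoxifen at 20 mg/kg at intervals of 24 hours over 5 days, and the cortex was collected 7 days after the last injection. Nuclei were fixed in 50% ethanol, stained with an antibody to NeuN, the neuronal antigen that Rbfox3 encodes, and sorted. The sources used here name neither the promoter or recombinase behind the transgene nor whether a library stands for 1 animal or a pool. Mice that lack the editor and NeuN-negative nuclei were not analysed here.

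The authors deposited 1 list for both libraries, in which 0 columns hold values per library and 0 hold coverage. A level per library, a spread between replicates and a sequencing depth can therefore not be given for any site, and no test over samples was possible. Every SD below is a spread across sites, and comparisons with other genes are descriptions of this list. Sites of 1 gene share their RNA and its depth and are not replicates of each other. The median level over all sites was 3.64%, with quartiles of 2.01% and 6.90%, and the lowest listed level was 1%. In bulk nuclei, fewer cells of a type and less RNA per cell cannot be told apart, and with no expression values the absence of a site cannot be told apart from low coverage.

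Oligodendrocyte precursors are the dividing glia of the adult brain that give rise to myelinating oligodendrocytes. Pdgfra encodes the receptor for platelet-derived growth factor A, which drives their division and survival. Cspg4 encodes the membrane proteoglycan NG2, the classical surface marker of these cells. Ptprz1 encodes a receptor-type tyrosine phosphatase that carries chondroitin sulfate chains; the growth factors pleiotrophin and midkine and the adhesion molecule contactin bind to its outer part. Tmem100 encodes a small protein with membrane-spanning segments. None of the genes is restricted to precursors: Ptprz1 is also known from astrocytes and radial glia, Cspg4 from pericytes, Pdgfra from fibroblasts of the meninges and vessels, and Tmem100 from endothelium.

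Ptprz1 held most of the sites of the group. It had 20 sites, Cspg4 had 4, and Pdgfra and Tmem100 had 2 each. Of the listed genes, 0.375% had at least 20 sites, 20% had at least 4 and 50.8% had at least 2. Ptprz1 thus lay among the 26 genes with the most sites, with 21 genes above it, and the other 3 genes lay in the broad body of the list. All 28 sites were on the plus strand and inside the RefSeq span of their gene, and no other RefSeq gene overlapped any of them. Relative to gene length Ptprz1 and Cspg4 were close together, while Tmem100 lay highest and Pdgfra lowest. Ptprz1 had 1.13 sites per 10 kb of gene span, Cspg4 1.15, Pdgfra 0.427 and Tmem100, the shortest gene, 3.25. The median over 6374 genes with a site in a known span was 0.580 sites per 10 kb.

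Ptprz1 (chromosome 6, 22875315 to 23052916) showed many sites at low levels. Its 20 sites ranged from 1.02% to 8.33%, with a median of 1.68% and a mean of 2.43% ± 1.97 (SD across sites). Of these, 17 were below the median of all sites and 11 were below the lower quartile. At 7 of the 20 sites (35%) the level was under 1.5%, which was the case for 13.4% of all listed sites. No site of Ptprz1 reached 10%, a level that 14.9% of all listed sites reached. Across the list, genes with more sites had lower medians: the median gene level was 6.06% for genes with 1 site, 4.42% for those with 2 to 4 sites and 2.07% for the 26 genes with 20 or more. Among these 26 genes, 6 had a lower median than Ptprz1. With a minimum level of 2% the number of Ptprz1 sites was 9, and with 5% it was 2. Calling an edit at a low level takes more reads than calling one at a high level, and the part of coverage in these values was not tested.

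**Figure D1:**
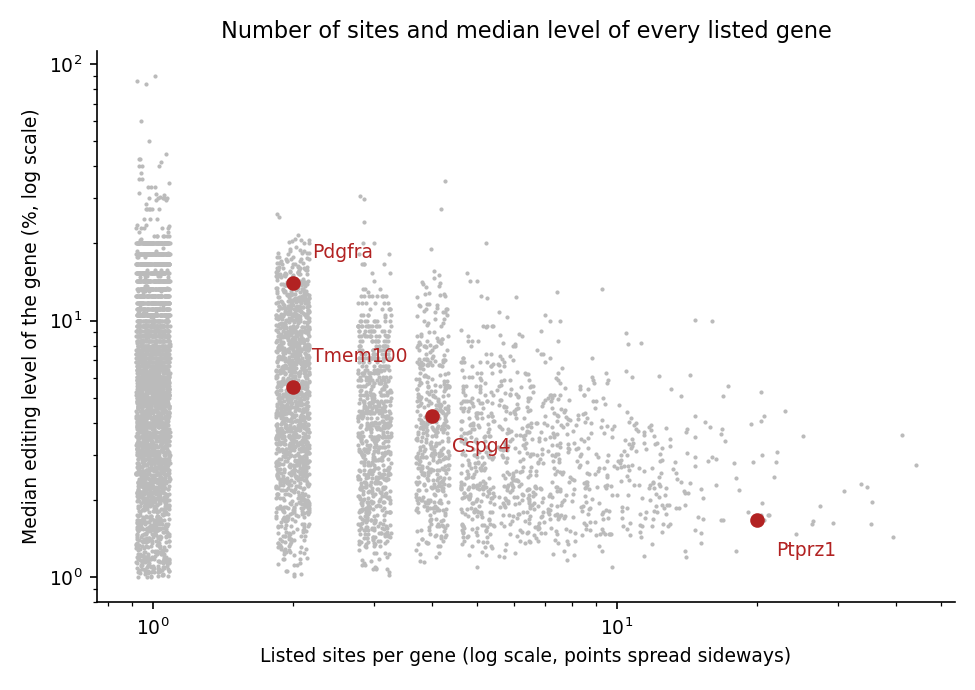
Each grey point is 1 listed gene, with its number of sites (log axis, spread sideways to separate points) against the median editing level of its sites in percent (log axis); the 4 genes described here are in red. Ptprz1 lies at 20 sites and a median of 1.68%, and Pdgfra lies high among the genes with 2 sites, at a median of 14%.

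The sites of Ptprz1 fell into 5 places along its 178 kb, when sites more than 5 kb apart are taken as separate. The first site was at position 22875844, 529 nt from the 5′ end of the span, at 1.29%. The next was at 22987340, 112 kb from the 5′ end, at 1.67%. Both were single sites at levels in the range below the lower quartile of all sites.

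A block of 13 sites followed between 23001025 and 23004226, a stretch of 3201 nt that began 126 kb from the 5′ end and ended 48.7 kb before the 3′ end. Its levels ran from 1.06% to 8.33% with a median of 2.20%. Ptprz1 is known for a very long internal exon that encodes the part of the receptor with the chondroitin sulfate attachment sites. Whether the block lies in that exon was not determined, because the annotation used here gives gene spans and no exons. Within the block the first 6 sites stood in 3 pairs. Positions 23001025 and 23001028 were at 2.99% and 2.21%, positions 23001354 and 23001398 at 2.44% and 2.41%, and positions 23001910 and 23001920 at 2.20% each. The first pair differed by 0.78 points, the most of any close pair in the gene, and the sites of the third had the same listed level. The next site, 23002021, was at 1.06%.

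In the second part of the block the levels were less even. After a gap of 1150 nt came position 23003171 at 4.04%. Then 3 sites within 53 nt, at 23003569, 23003608 and 23003622, had 1.34%, 1.67% and 1.69%. Position 23003885, 263 nt further on, had 8.33%, the highest level in the gene, and position 23004226 closed the block at 1.12%. The highest site of Ptprz1 thus lay between neighbours of 1.69% and 1.12%. Of the 13 sites, those at 23003171 and 23003885 were the ones above the median of all listed sites.

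The last 5 sites of Ptprz1 were nearer to the 3′ end. Of these, 4 lay within 91 nt, at 23036932, 23036953, 23037000 and 23037023, about 15.9 kb before the end. Their levels were 1.53%, 1.02%, 1.29% and 1.05%, a mean of 1.22% ± 0.24 (SD across sites). This was the longest run of close sites in the gene, and its levels lay near the bottom of the list. The final site, 23052467, lay 449 nt before the 3′ end and had 7.14%. It was the highest of the gene after that in the block, and the nearest to either end of the span.

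**Figure D2:**
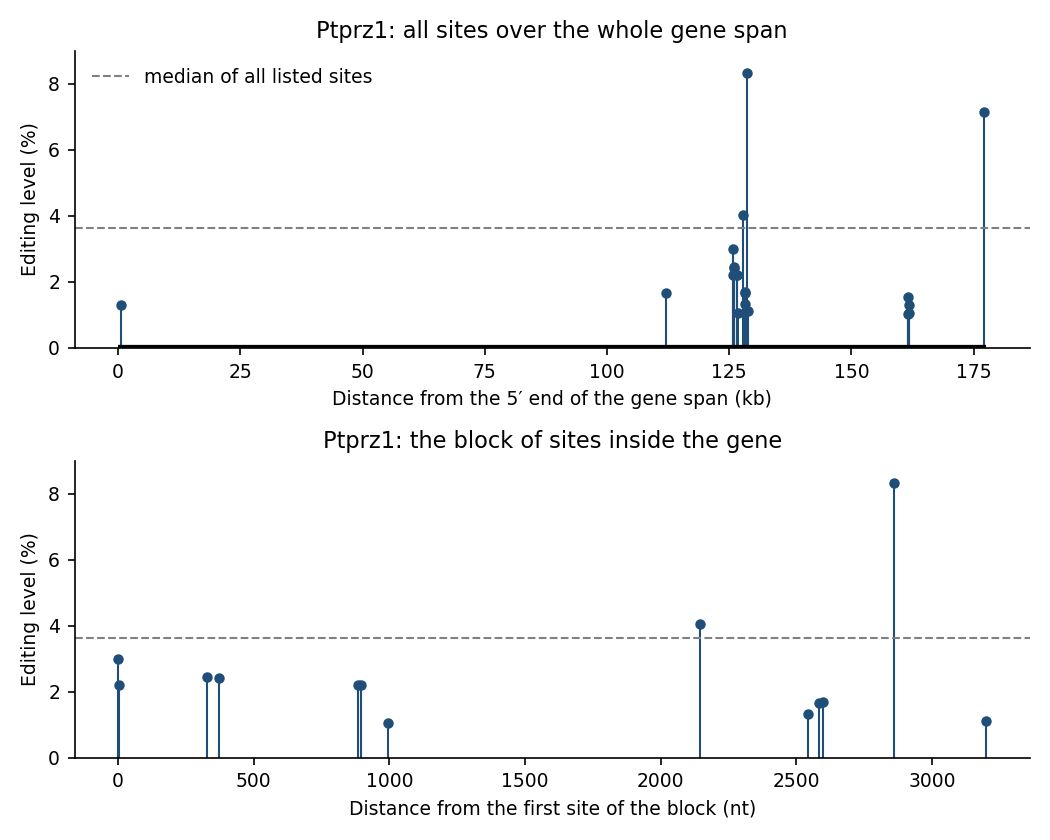
Editing level (percent) of the 20 Ptprz1 sites against distance from the 5′ end of the gene span (upper panel, kb; the black bar is the span) and of the 13 sites of the internal block against distance from its first site (lower panel, nt). The dashed line marks the median of all listed sites, 3.64%; 17 of the 20 sites lie below it.

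Most sites of Ptprz1 had a close neighbour, and few lay at the end of the gene. Of its 20 sites, 13 (65%) had another within 100 nt, against 23.3% of all listed sites inside gene spans. That 23.3% includes sites of genes with 1 site, which cannot have a neighbour. Among other list genes with many sites, such a neighbour was found for 10 of 14 sites in Pik3r1 and 10 of 17 in Ptprb. It was found for 7 of 20 in Nfasc, 7 of 16 in Luzp2, 7 of 15 in Ncan and 0 of 17 in Lrp1. These genes are examples, and the share is not given here for the other genes with at least 20 sites. Within 20 nt of another lay 6 of the 20 Ptprz1 sites. In 8 pairs of adjacent sites within 100 nt the levels differed by 0 to 0.78 percentage points (median 0.26). In the 11 pairs that were farther apart they differed by 0.21 to 7.21 points (median 1.32). Over all genes the median difference was 0.82 points for 2354 close pairs and 1.62 points for 8132 others. The close sites of Ptprz1 lay between 1.02% and 2.99%, below the median of all listed sites. Such low levels leave less room for a difference in points. Just 1 of 20 sites of Ptprz1 (5%) lay in the last 5 kb of the gene span, against 49.7% of the 16861 listed sites inside matched gene spans. That 49.7% includes genes shorter than 5 kb, all of whose sites count. Of the 26 genes with at least 20 sites, Ahnak (0 of 26 sites) and Zbtb20 (1 of 21 sites inside its span) had a lower share there and 9 had all of their sites there. None of these differences was tested, since the sites are those of a single gene in a single list.

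The genes most like Ptprz1 in number of sites were the 4 others with exactly 20. Nfasc, which encodes the axonal adhesion molecule neurofascin, had a median of 1.76% and a highest site of 5.56%, with 11 of its 20 sites in the last 5 kb. Slc1a4, a neutral amino acid transporter gene, had a median of 1.94% and 19 of 20 sites in that stretch. Agpat3, a phospholipid synthesis gene, had 3.01% and 17 of 20, and Dag1, which encodes dystroglycan, had 4.25% and 20 of 20. Ptprz1 had the lowest median of the 5 genes and the fewest sites near the 3′ end. The highest sites of Slc1a4, Agpat3 and Dag1 were at 22.8%, 22.7% and 22.2%, while that of Ptprz1 was at 8.33%.

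Cspg4 (chromosome 9, 56865104 to 56899870) had 4 sites in the second part of its 34.8 kb. Positions 56886585 and 56887554, 13.3 and 12.3 kb before the 3′ end, had 4.88% and 7.14%. Positions 56898953 and 56899077, 917 and 793 nt before the 3′ end, had 3.64% and 1.92%. Both inner sites were higher than both sites near the end. The mean was 4.40% ± 2.20 (SD across sites) and the median 4.26%. Of the 452 genes with 4 sites, 59.3% had a lower median, and their middle value was 3.70%. Cspg4 was thus close to the typical gene with its number of sites.

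Pdgfra (chromosome 5, 75151322 to 75198206) had the highest levels of the 4 genes. Position 75170587, 27.6 kb before the 3′ end, had 20%, and position 75192613, 5.59 kb before the 3′ end, had 8%. Levels of 20% or more were reached by 2.02% of all listed sites, and this was the single site of the 28 above 10%. The median of 14%, which rests on the higher site since the other alone is at 8%, was above that of 93.8% of the 1382 genes with 2 sites, whose middle value was 5.21%. Both sites lay outside the last 5 kb; with a stretch of 10 kb, 1 of them was inside. The pair stood 22026 nt apart, so neither had a close neighbour.

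Tmem100 (chromosome 11, 90030348 to 90036508) had both of its sites at the end of its 6.16 kb span. Position 90035777, 731 nt before the 3′ end, had 3.03%, and position 90035910, 598 nt before it, had 8%. The sites were 133 nt apart, and they lay on either side of the median of all listed sites. Their median of 5.52% (3.03% without the higher site) was above that of 52.5% of the genes with 2 sites. Since the whole gene is little longer than 5 kb, a place in the last 5 kb says little about Tmem100.

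**Figure D3:**
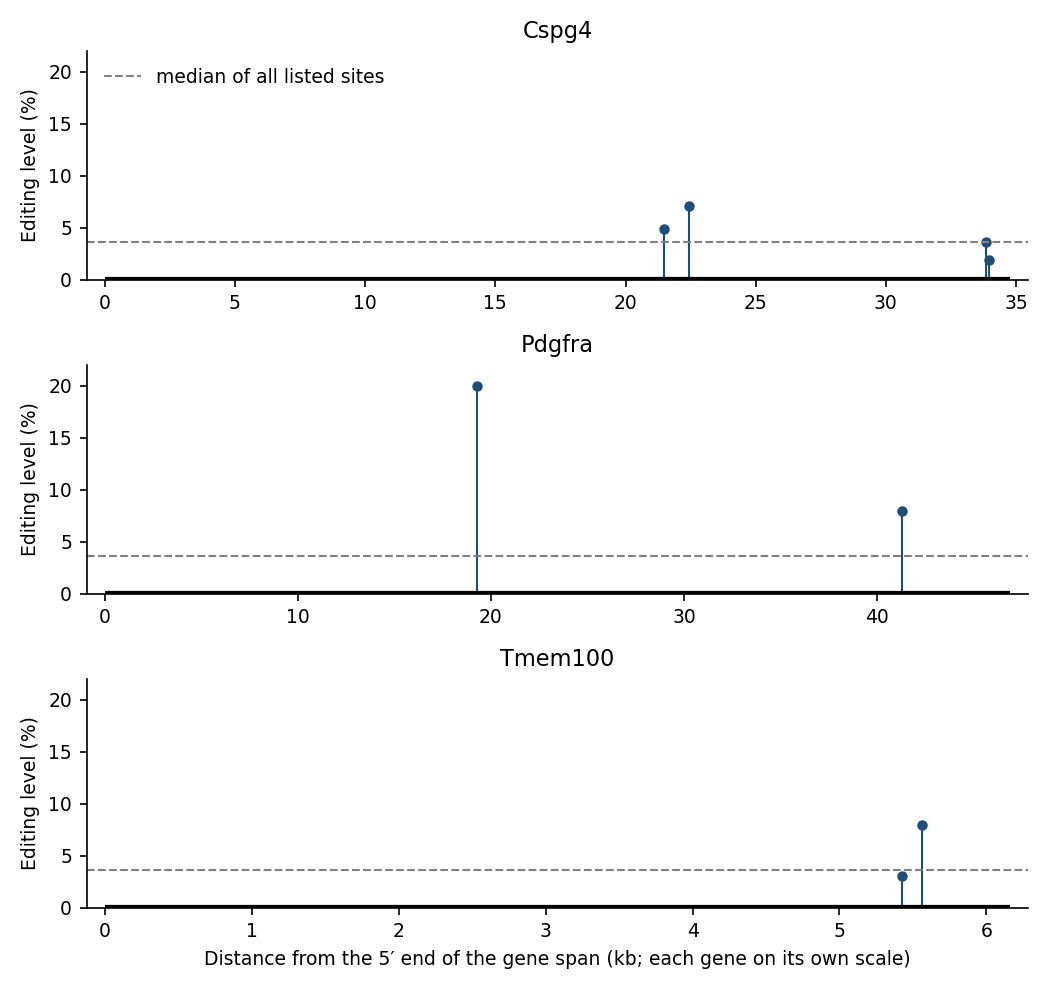
Editing level (percent) of the sites of Cspg4 (4 sites), Pdgfra (2) and Tmem100 (2) against distance from the 5′ end of the gene span in kb, each gene on its own horizontal scale; black bars are the spans and the dashed line is the median of all listed sites. The Pdgfra site at 20% stands highest, and the other 7 sites lie between 1.92% and 8%.

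Among the 4 genes the order of the medians was Pdgfra (14%), Tmem100 (5.52%), Cspg4 (4.26%) and Ptprz1 (1.68%). Neighbours in this order were not separate. The higher Tmem100 site equalled the lower Pdgfra site at 8%, the Cspg4 sites (1.92% to 7.14%) overlapped those of Tmem100 (3.03% and 8%), and Ptprz1 reached 8.33%. The highest Ptprz1 site exceeded every site of Cspg4 and Tmem100. The lower Pdgfra site was above 19 of the 20 Ptprz1 sites.

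Ptprz1 led its gene family in number of sites, with no correction for gene length. Its span is 178 kb, and that of Ptprb, the next in number with 17 sites, is 114 kb. Of 21 receptor tyrosine phosphatase genes, 12 had a site (57.1%), against 28.3% of all protein-coding genes in the RefSeq table. Since the 4 genes described here have sites by choice, the count without Ptprz1 was 11 of 20. The share of 28.3% counts genes whether or not cortex expresses them, and no expression values were at hand. After Ptprz1 came Ptprb, the phosphatase of blood vessel endothelium, with 17 sites from 1.76% to 20.6% (median 3.39%), of which 11 lay in the last 5 kb. Ptprg, the closest relative of Ptprz1, had 8 sites with a median of 2.57%, and 0 of them were in the last 5 kb. Its densest 5 kb held 4 sites, against 13 in Ptprz1 and 11 in Ptprb. Ptprd, a synaptic adhesion phosphatase, had 8 sites (median 1.55%, 1 in the last 5 kb), and Ptprt had 6 (median 1.95%, 0 there). Over the 20 phosphatase genes other than Ptprz1, 17 of 55 sites inside gene spans (30.9%) lay in the last 5 kb. A low share near the 3′ end was thus also seen in relatives of Ptprz1.

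The ligands and partners of Ptprz1 carried sites in 15 of 19 genes (78.9%), against 28.3% of all protein-coding genes. Its secreted ligands had few: Ptn, which encodes pleiotrophin, had 2 sites with a median of 1.26%, and Mdk, which encodes midkine, had 1 site at 8.57%. Among adhesion partners Nfasc had 20 sites, Ncam1, the neural cell adhesion molecule, had 12 (median 2.10%) and Nrcam had 9 (median 1.79%). Lrp1, an endocytic receptor for many ligands, had 17 sites with a median of 1.27%, and Arhgap35, which encodes a substrate of the phosphatase, had 11 with a median of 3.85%. Cntn1, L1cam, Tnr and Alk had 0 sites. The median of the gene medians was 1.84% in this list, against 4.70% over all listed genes, which include the genes with 1 site (6.06%). Over the 13 lists this median ran from 1.525% for mature oligodendrocyte markers to 8.295% for fibroblast markers. It was 1.97% for astrocyte markers, so a low value was not particular to the partners of Ptprz1.

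**Figure D4:**
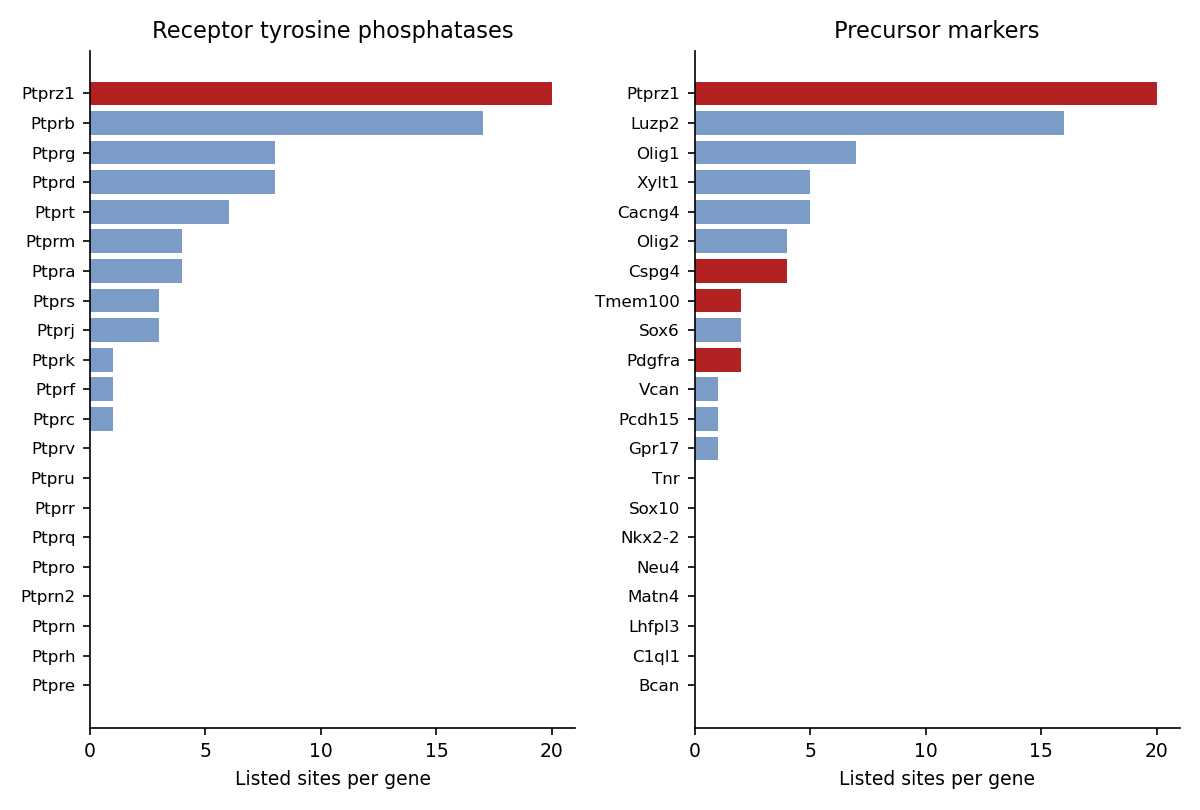
Number of listed sites of each of 21 receptor tyrosine phosphatase genes (left) and of each of 21 precursor markers (right), as bars from 0; red bars are Ptprz1, Cspg4, Pdgfra and Tmem100. Ptprz1 has the longest bar in both panels, 9 phosphatase genes have 0 sites and 8 precursor markers have 0 sites.

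Chondroitin sulfate proteoglycans, the class to which both Ptprz1 and Cspg4 belong, had a site in 5 of 7 genes (71.4%). Without Ptprz1 and Cspg4 it was 3 of 5, and over all protein-coding genes the share was 28.3%. Ncan, which encodes neurocan, had 15 sites from 1.03% to 4.88% (median 2.20%), 11 of them in the last 5 kb. Cspg5, which encodes neuroglycan C, had 10 sites from 1.39% to 4.44% (median 2.10%), 7 of them there. Vcan, which encodes versican, a product of precursors, had 1 site at 15.4%, and Bcan and Acan had 0. Ptprz1, Ncan and Cspg5 shared many sites at low levels and differed in where those sites lay. Of the partners of Cspg4, 3 of 6 (50%) had a site, against the same 28.3% of all protein-coding genes. Itgb1 had 5 (median 1.53%), Sdcbp, a scaffold that binds the tail of NG2, had 3 (median 7.41%), and Mpdz had 1 at 6.06%. Grip1, Itga3 and Lgals3 had 0.

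In the PDGF pathway 11 of 15 genes had a site (73.3%), against 28.3% of all protein-coding genes. Without Pdgfra it was 10 of 14. Of the ligand genes, Pdgfa had 1 site at 15.4%, 0.995 kb before the 3′ end, and Pdgfb, Pdgfc and Pdgfd had 0. Pdgfrb, the receptor gene of pericytes, had 11 sites from 1.08% to 4.23% (median 1.59%), so that its highest site was below the lowest of Pdgfra. Downstream, Pik3r1, a regulatory subunit of PI3 kinase, had 14 sites (median 1.87%), the adaptor gene Gab1 12 (median 2%) and the phospholipase gene Plcg1 9 (median 2.52%). Grb2 had 0. The genes linked to Tmem100 had a site in 3 of 9 cases (33.3%), a share near the 28.3% of all protein-coding genes. The endothelial co-receptor gene Eng and the signal transducer genes Smad1 and Smad5 had 3 each, with medians of 4.65%, 5.17% and 8.33%. The receptor gene Acvrl1, its ligand genes Gdf2 and Bmp10, the target gene Id1 and the channel genes Trpa1 and Trpv1 had 0.

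Across markers of precursors the sites were unevenly spread. Of 21 markers, 13 had a site (61.9%), against 28.3% of all protein-coding genes. Among the 13 were the 4 genes described here and 9 of 17 others. Luzp2 followed Ptprz1 with 16 sites (median 2.29%, highest 13.6%), and Olig1, a lineage transcription factor gene, had 7 (median 2.78%). Cacng4 and Xylt1 had 5 each, with medians of 6.90% and 3.33%. Of the 41 sites of these other markers that lay in a known span, 33 (80.5%) were in the last 5 kb, against 1 of 20 in Ptprz1 and 4 of 8 (50%) in Cspg4, Pdgfra and Tmem100 together. Olig1 and Olig2 are shorter than 5 kb, so that all of their sites count. Without genes of such length the share was 22 of 30 (73.3%), and without Luzp2 as well it was 8 of 14 (57.1%); both were chosen after the values were seen. The lineage gene Sox10 and 7 further markers had 0 sites. These 8 were picked out after their values were seen, as were the pairs and runs of sites described above.

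The list also held sites in markers of other cell types, including those known to express these genes. The share of markers with a site ran from 14.3% for fibroblasts to 90% for mature oligodendrocytes, against 28.3% of all protein-coding genes. For astrocytes 8 of 10 markers had a site and 163 sites were listed, led by Aqp4 (45 sites), Slc1a2 (38 sites), Gja1 (33 sites) and Slc1a3 (23 sites), with Gfap and Aldoc at 0. For pericytes 6 of 8 had a site, led by Rgs5 with 19, and Kcnj8 and Higd1b had 0. For endothelium 6 of 8 had a site, led by Flt1 with 10, and Tek and Ly6c1 had 0. For fibroblasts 1 of 7 had a site, namely Col1a2 with 2. For mature oligodendrocytes 9 of 10 had a site, led by Mal with 16, and Mag had 0. For neurons, the labelled cell type, 4 of 10 had a site: Map2 had 5, Syt1 4, and Snap25 and Eno2 1 each, while Rbfox3 was at 0. From which of these cells the edited RNA of Ptprz1, Cspg4, Pdgfra and Tmem100 came was not tested.

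**Figure D5:**
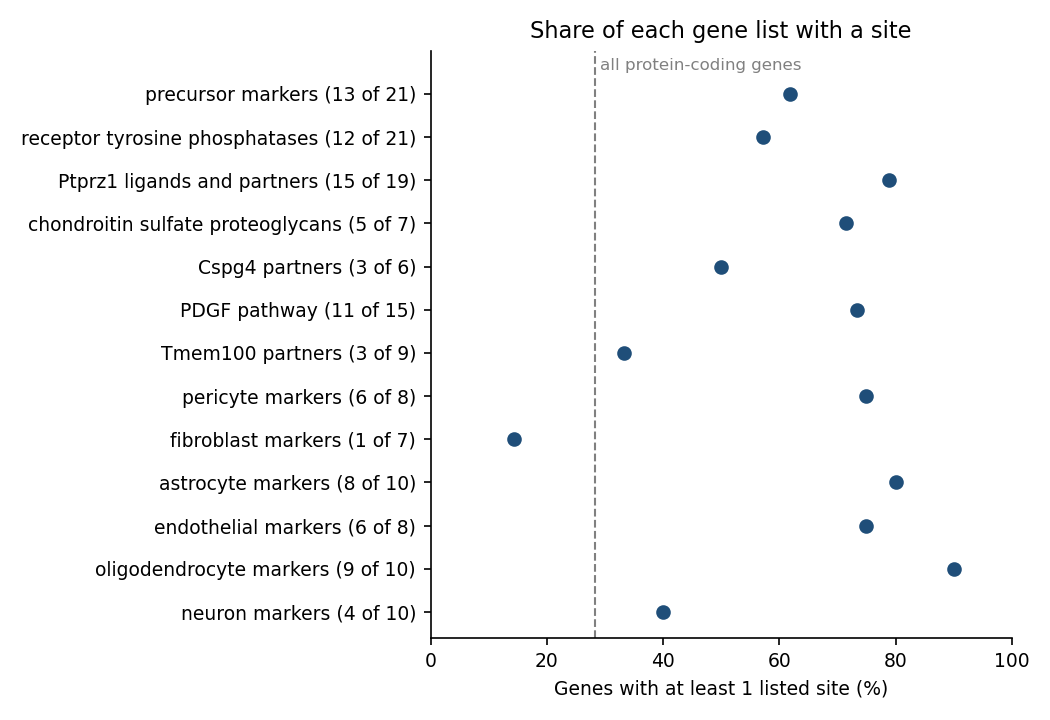
Share of the genes of each list with at least 1 listed site, in percent, with the number of genes in brackets; the dashed line is the share of all protein-coding genes, 28.3%. Every list but the fibroblast markers lies to the right of the line, and the lists share some genes. The points include Ptprz1, Cspg4, Pdgfra and Tmem100 where listed, and these have sites by choice. Without them the counts were 9 of 17 precursor markers, 11 of 20 phosphatases, 3 of 5 proteoglycans and 10 of 14 PDGF pathway genes.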

How the data were processed

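C-to-U sites were measured in 2 RNA-seq libraries of sorted nuclei. Per the labels' protocols, libraries were made with a stranded total RNA kit, although another label field names polyA RNA. Per the series description sites were found with the Bullseye pipeline; STAR 2.7.5 and the build mm10 are named in the submitters' processing notes. The settings of Bullseye, its control and how libraries were pooled were not given in the sources used here. A single list was deposited by the authors, with an editing fraction per site, multiplied here by 100 to give percent. Listed positions were read as 1-based: in 146 of 146 sites covered by a RefSeq promoter sequence of their gene, the listed base was C on the listed strand. None of the 28 sites was covered, so no sequence is shown and the planned look at neighbouring bases was not run. Spans came from a RefSeq table of GRCm38.p6 (6456 of 6929 names matched by symbol or a synonym of 1 gene; 16861 sites inside spans; all 143 list genes matched). The counting code was checked on simulated gene spans with planted sites; no listed value was compared with simulated sites. The genes and the 13 lists were chosen with earlier results of these data known. Named were the 4 genes, in each list up to 4 others with the most sites and, where they were 4 or fewer, those with 0, and genes with as many sites as Ptprz1. Ptn, Mdk, Nrcam, Pdgfa, Pcdh15, Gpr17, Sox10, Acvrl1, Gdf2, Bmp10, Id1, Trpa1, Trpv1, Rbfox3, Ahnak and Zbtb20 were added after their values were seen. Alternatives were minimum levels of 2% and 5%, other stretches (2 and 10 kb) and distances (20 and 500 nt), means for medians, and leaving out the highest site. Analysis used Python 3.11.15, pandas 2.3.3 and scipy 1.17.1.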

Additional observations from a re-analysis of the deposited data

How the results depend on the processing

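Of 44 values recomputed for the 4 genes, 34 stayed within 1.5 times of the reported count or within 1 SD across sites of the reported level. Some of the 34 could not have changed, so that number does not measure stability. A gene with no sites within 100 nt of each other has none within 20 nt. Without a site in the last 5 kb there is none in the last 2 kb. Both Pdgfra sites lie above the minimums of 2% and 5%, and the last 10 kb take in the whole span of Tmem100. With a minimum level of 2% Ptprz1 had 9 sites, 6 of them with another within 100 nt, and Cspg4 had 1 site in the last 5 kb. With a minimum of 5% Ptprz1 had 2 sites, Cspg4 1 and Tmem100 1. Within 20 nt of another site were 6 sites of Ptprz1, and within 500 nt were 2 of Cspg4 and 2 of Tmem100. In the last 10 kb lay 1 site of Pdgfra. Each of these changes follows from the number of sites that a minimum or distance keeps. Without its highest site the median fell to 8% in Pdgfra and to 3.03% in Tmem100; with 2 sites such a shift is always under 1 SD across sites, so that bound says nothing about the stability of these medians. Of 39 recomputed list counts, 32 stayed within 1.5 times. Those of the precursor markers did under all 3 alternatives, but the 4 genes described here are counted under each of them, so that part could not change. Counts outside 1.5 times were in the lists of Ptprz1 partners (15 to 9), proteoglycans, and markers of astrocytes, mature oligodendrocytes and neurons. No paired analysis was possible because the list holds no values per library, and for the same reason neither library could be left out in turn. Depth is unknown, so how many sites coverage hides cannot be given.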

Other observations

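The stretch of 13 sites in 3202 nt inside Ptprz1 was used, after it had been seen, as a measure for the other genes. In 35 genes some stretch of that width held at least 13 sites. In 4 of them, Ptprz1 included, the stretch lay more than 10 kb from both ends of the gene span. The others were Arhgap5 with 23 sites in the stretch (median 1.59%), Fat3, a cadherin-related gene, with 22 (median 1.66%), and the zinc finger gene Zfp644 with 18 (median 5.26%). In the precursor marker Luzp2 a stretch with 13 sites ended 1.06 kb before the 3′ end. Abcc9, a pericyte marker, had 5 sites with a median of 20% and a highest site of 36.8%, the highest gene median of the 13 lists.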
